A study of Mus musculus with 2 samples.

Results

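The STAT5 axis was read here through 10 genes, namely the kinase gene Jak2, the transcription factor genes Stat5a, Stat5b and Stat3, and 6 genes that STAT5 is known to switch on, which are Cish, Socs1, Socs2, Socs3, Pim1 and Osm. The genes were chosen by name for their place in the pathway, with earlier results of these data known, and all 10 were found among the 34745 genes measured. RNA was sequenced from BM LSKs of Scl/tTA-BA mice, which are bone marrow cells lacking lineage markers and positive for Sca1 and c-Kit. In these C57BL/6 mice the Scl gene drives the tetracycline transactivator in stem and progenitor cells, and the BCR/ABL fusion (BA) is expressed after doxycycline is withdrawn. The week-0 library was taken at withdrawal and the week-3 library 3 weeks later, so both carry the same transgenes. The LSKs were sorted on surface markers alone, not on expression of the transgene. As a reference for the level of BA, the paper followed Scl/tTA-GFP reporter mice in parallel. Their LSKs held no GFP-positive cells at week-0, and only a part were GFP-positive at week-3. The share of cells expressing BA in the week-3 library is not known here. Each time point is 1 library of LSKs mixed from 3 mice, so the spread between mice is unknown, no p-value can be given, and every difference is between these libraries.

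JAK kinases sit on the inner side of cytokine receptors and phosphorylate STAT factors, which pair, enter the nucleus and bind DNA. BCR/ABL is itself a tyrosine kinase and is known to activate STAT5 without a cytokine. Among the genes that STAT5 turns on are inhibitors of the same pathway, CISH and the SOCS proteins. Activation of STAT5 is a phosphorylation and was not measured here, and the values below are RNA levels only.

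STAT5 dimers bind a palindrome of 9 bases, TTCNNNGAA, which reads the same on both strands. It was searched in RefSeq promoters of GRCm38.p6, each running from 250 bases before to 50 bases after a start site. Promoters were matched for 8 of the 10 members, in 11 windows, and Osm and Socs2 had no entry. The motif was found in 2 of the 11 windows, those of Cish and Socs3, against 2726 of 32851 promoters of the same length (8.30%). The Cish window held 2 matches, as did 150 promoters (0.457%) when those with 2 or more are counted. These windows are shown because they are the ones of the members that hold a match, which is set in capitals. The Cish window lies at chr9:107296409-107296708 on the plus strand, with matches starting at bases +1 and +12 from the start site and not overlapping. The Socs3 window lies at chr11:117969317-117969616 on the minus strand, with its match starting at base -154. Both windows lie inside the spans given for these genes below. The RefSeq start sites used are thus not the outer ends of those spans, and the positions hold for these start sites only.
Cish: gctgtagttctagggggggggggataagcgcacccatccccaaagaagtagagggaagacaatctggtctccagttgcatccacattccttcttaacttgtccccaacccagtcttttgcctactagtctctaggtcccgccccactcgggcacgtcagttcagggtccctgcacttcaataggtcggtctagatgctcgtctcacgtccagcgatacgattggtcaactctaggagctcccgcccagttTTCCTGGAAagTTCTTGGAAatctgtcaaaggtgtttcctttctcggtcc
Socs3: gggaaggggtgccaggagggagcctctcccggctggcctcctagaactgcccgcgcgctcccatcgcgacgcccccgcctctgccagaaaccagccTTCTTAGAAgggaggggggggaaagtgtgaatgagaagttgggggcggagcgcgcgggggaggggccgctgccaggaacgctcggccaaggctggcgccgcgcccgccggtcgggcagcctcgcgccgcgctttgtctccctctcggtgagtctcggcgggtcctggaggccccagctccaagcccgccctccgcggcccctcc
A match is a description of the letters and not a measured binding site, and the window says nothing of sites farther away.

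The STAT genes of the axis had lower FPKM in the week-3 library, while the targets split. Of all 10 members, 1 was higher and 3 were lower by the limit used here, which is an FPKM at week-3 at least 2 times, or no more than 0.5 times, that at week-0, with at least 20 reads over both libraries. Over the 12192 genes with that many reads, 10.6% were higher and 15.6% were lower by the same limit, so the share of higher members is near that of all genes, and the share of lower members rests on 3 genes, Stat5b, Cish and Socs1. All 10 members passed the minimum of reads. Their median log2 ratio was -0.37, with 4 values above 0 and 6 below, and that of all genes tested was 0.07. FPKM is the number of fragments per kilobase of exon, scaled to the reads of the library, and intervals are exact 95% intervals of counting error alone, which do not cover the spread between mice.

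Of the 4 pathway parts, 1 was past the limit. Jak2 (ENSMUSG00000024789, chr19:29251828-29313080, plus strand), the kinase used by the receptors for erythropoietin and interleukin-3, had 88 reads at week-0 against 55 at week-3, which is 2.75 FPKM (2.21 to 3.39) and 2.81 FPKM (2.12 to 3.66). Its ratio was 1.02 with an interval of 0.716 to 1.45, so no difference was detectable at this depth. Stat5b had 857 reads at week-0 against 218 at week-3. Its level was 23.0 FPKM (21.5 to 24.6) and then 9.57 FPKM (8.34 to 10.9), a ratio of 0.416 (0.357 to 0.483), or 2.40-fold lower. Stat5b was the only part of these 4 below the limit, and 11.8% of the genes tested had a lower ratio. Stat5a, the paralog of Stat5b, had 706 and 248 reads and 11.1 (10.3 to 12.0) and 6.39 (5.62 to 7.24) FPKM. Its ratio of 0.574 (0.495 to 0.665) was below 1 over the whole interval but did not reach the limit. Stat3, which acts downstream of the gp130 receptor used by interleukin-6 and oncostatin M, had 1264 and 564 reads. At 12.6 FPKM (11.9 to 13.4) and 9.22 FPKM (8.47 to 10.01), its ratio was 0.730 (0.660 to 0.806).

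**Figure D1:**
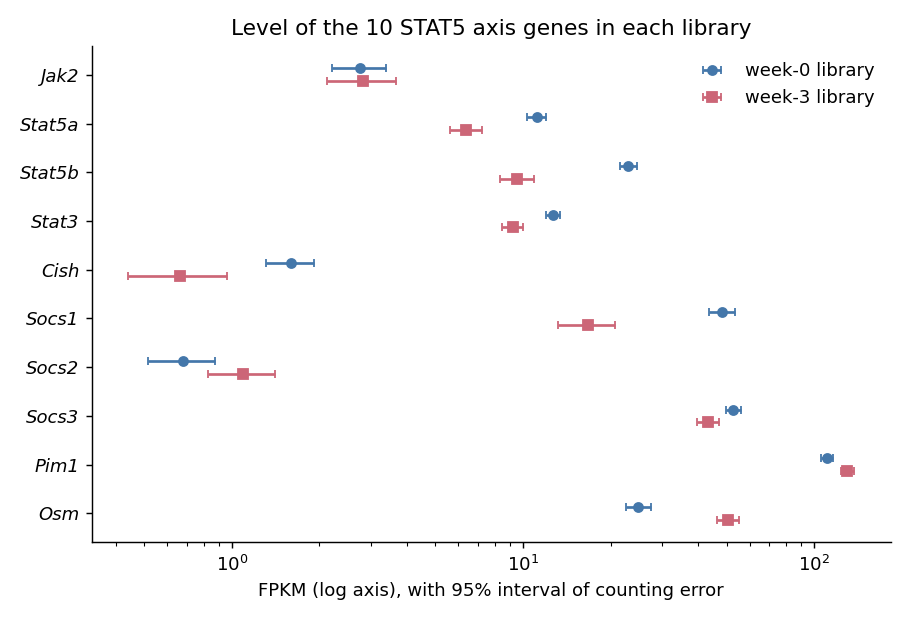
Level of each member in FPKM on a log axis, with week-0 as circles and week-3 as squares and bars for the 95% interval of counting error. The intervals of the libraries do not overlap for Stat5a, Stat5b, Stat3, Cish, Socs1, Socs3, Pim1 and Osm, while those of Jak2 and Socs2 do.

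The 4 feedback inhibitors divided, with Cish and Socs1 lower and Socs2 and Socs3 within the limit. CISH binds phosphorylated receptors and competes with STAT5 for them. Cish (ENSMUSG00000032578, chr9:107296026-107302784, plus strand) was a low gene, with 110 reads at week-0 against 28 at week-3, or 1.60 (1.31 to 1.92) and 0.664 (0.441 to 0.960) FPKM. Its ratio of 0.416 was as low as that of Stat5b, but with an interval of 0.265 to 0.635 that crosses the limit. SOCS1 and SOCS3 block JAK kinases directly. Socs1 (ENSMUSG00000038037, chr16:10783808-10785536, minus strand) had 374 and 79 reads and 48.2 (43.5 to 53.4) and 16.7 (13.2 to 20.8) FPKM, a ratio of 0.345 (0.267 to 0.441), or 2.89-fold lower. Socs1 was the lowest of the 10 ratios, and 9.10% of the genes tested lay below it. Socs3 (ENSMUSG00000053113, chr11:117966079-117970047, minus strand) had 1103 and 553 reads and 52.8 (49.7 to 56.0) and 43.3 (39.7 to 47.0) FPKM. Its ratio was 0.820 (0.739 to 0.909), against 0.345 for Socs1. The similar FPKM of Socs1 and Socs3 in the week-0 library rests on the deposited lengths. With exon union lengths of GENCODE M21 they were at 20.2 and 60.0 reads per kilobase per 1000000 reads. The Socs1 model of that release is longer than the whole deposited locus. Its reads could not be counted over all of that length, so 20.2 is not a matched level. Socs2 (ENSMUSG00000020027, chr10:95385362-95417180, minus strand), best known as a brake on growth hormone signalling, lay on the other side of 1. It had 59 reads at week-0 against 58 in the smaller week-3 library, which is 0.678 (0.516 to 0.875) and 1.09 (0.828 to 1.41) FPKM, with a ratio of 1.61 (1.10 to 2.35). Socs2 did not reach the limit of 2, and its interval runs past it. All 14 immediate-early genes, which handling and stress of cells are known to raise and which include Fos, Jun and Egr1, had lower FPKM at week-3, 12 of them past the limit. They took 4.04% of reads in the earlier library and 1.20% in the later one, with Egr3 at 63 and 0 reads. Socs1 and Socs3 are also known to respond quickly to stimuli, and the part of this difference in their values, or in those of other members, was not tested.

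The remaining targets are not inhibitors of the pathway, and neither was lower. PIM1 is a serine/threonine kinase that is active as soon as it is made, so that its amount follows its RNA and its turnover. Pim1 (ENSMUSG00000024014, chr17:29490812-29496111, plus strand) had 1853 reads at week-0 against 1334 at week-3, and 110.5 (105.5 to 115.7) and 130.1 (123.2 to 137.3) FPKM. It had the highest FPKM of the 10 in both libraries, and its ratio of 1.18 (1.10 to 1.26) was within the limit. Osm encodes oncostatin M, a cytokine of the interleukin-6 family that blood cells secrete. Osm (ENSMUSG00000058755, chr11:4236420-4241026, plus strand) had more reads in the smaller library, 404 at week-0 against 502 at week-3, and 24.9 (22.5 to 27.5) and 50.6 (46.3 to 55.3) FPKM. Its ratio of 2.03 had an interval of 1.78 to 2.32, so that the limit of 2 lies inside it, and 89.8% of the genes tested had a lower ratio. With other scalings of the libraries or a pseudocount of 1 FPKM the log2 ratio of Osm was 0.91 to 0.99, just under the limit, and no member was then higher. In the same libraries, all 8 neutrophil and granule markers were higher (0.311% and 1.36% of reads), as were all 8 mast cell and basophil markers (0.0141% and 0.386%, with Tpsb2 and Mcpt4 at 0 in week-0). The part of these cell types in the value of Osm was not tested.

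**Figure D2:**
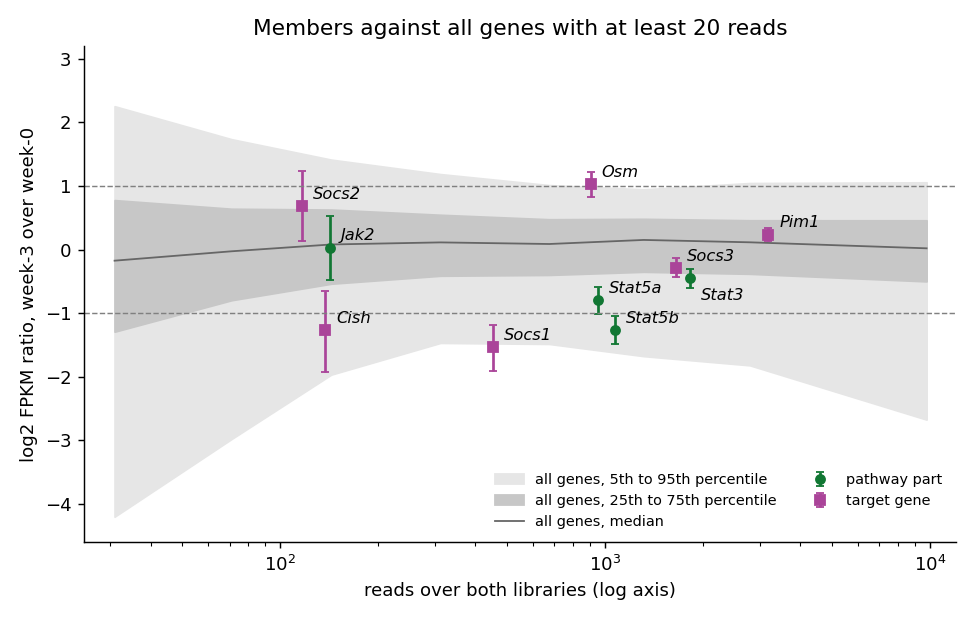
The log2 FPKM ratio of week-3 over week-0 for each member, with its 95% counting interval, against the reads over both libraries on a log axis. Grey bands show where the middle of all genes with at least 20 reads fell at each depth, dashed lines mark the limits, and Osm and Socs1 lie at the edges of the band that holds the 5th to 95th percentile.

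Targets were then compared with pathway parts inside each library, where the scaling between libraries cancels. The 6 targets together had 3903 reads at week-0 against 2554 at week-3, and the 4 parts had 2915 and 1085. There were thus 1.34 reads on targets for each read on parts at week-0 against 2.35 at week-3, a cross ratio of 1.76 (1.61 to 1.92). In FPKM, the parts summed to 49.5 and 28.0 and the targets to 239 and 242. Among the targets, Pim1 (110.5 and 130.1 FPKM), Osm (24.9 and 50.6 FPKM) and Socs2 (0.678 and 1.09 FPKM) had higher FPKM at week-3. Cish, Socs1 and Socs3 had lower FPKM. For the 4 feedback inhibitors alone, summed FPKM was 103 at week-0 against 61.7 at week-3, and the cross ratio to the parts was 1.17 (1.05 to 1.31). The median log2 ratio was -0.63 for the 4 parts, -0.03 for the 6 targets and -0.78 for the 4 feedback inhibitors. By the limit, the parts counted 0 higher and 1 lower, the targets 1 higher and 2 lower. Of all genes tested, 10.6% were higher and 15.6% were lower. With 4 and 6 genes, these counts do not set parts and targets apart from each other or from all genes.

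Stat5b, Stat5a and Stat3 lie side by side on chromosome 11, which also holds Socs3 and Osm. On GRCm38, Stat5b (ENSMUSG00000020919) spans chr11:100780731-100850724 on the minus strand, and Stat5a (ENSMUSG00000004043) follows after 8626 bases at chr11:100859351-100885169 on the plus strand. Stat3 (ENSMUSG00000004040), at chr11:100885098-100939540 on the minus strand, overlaps the end of Stat5a by 72 bases. The library kit kept no strand, so reads in this overlap cannot be told apart. The paralogs share some sequence. Of the windows of 100 bases in the longest transcript of Stat5a, 110 of 3859 (2.85%) occur without change in any transcript of Stat5b. For the longest transcript of Stat5b against any transcript of Stat5a, the count was 265 of 5114 (5.18%). Reads in these windows could be split between the genes.

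Both STAT5 genes had lower FPKM at week-3, past the limit for Stat5b alone, and the share of Stat5a differed between the libraries. Stat5a and Stat5b summed to 34.1 FPKM at week-0 against 16.0 at week-3. Stat5a made up 32.6% (30.4 to 34.9) of that sum at week-0 and 40.1% (35.7 to 44.6) at week-3. The cross ratio of Stat5a to Stat5b was 1.38 (1.12 to 1.71), which does not depend on gene length. Which of the paralogs had more RNA does depend on it. With the longest transcript of GENCODE M21 as the length, Stat5a made up 52.0% of the sum in the earlier library and 60.0% in the later one, and with the exon union 39.0% and 46.9%.

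By deposited FPKM at week-0, Pim1 was followed by Socs3 and Socs1, then Osm and Stat5b, then Stat3 and Stat5a, and then Jak2, Cish and Socs2. Counting intervals of neighbours overlapped between Socs3 and Socs1, between Osm and Stat5b, and between Stat3 and Stat5a. At week-3 the order was Pim1, Osm, Socs3, Socs1, Stat5b, Stat3, Stat5a, Jak2, Socs2 and Cish. Osm and Socs3, Stat5b and Stat3, and Socs2 and Cish were then neighbours with overlapping intervals. The lengths behind these FPKM were not always those of a transcript. For Socs1 the length was 1220 bases against 2908 bases of exon in GENCODE M21, whose Socs1 coordinates differ, and for Stat3 it was 15739 against a longest transcript of 6042. Those 2908 bases exceed the whole deposited locus of Socs1, where its reads were counted. With exon union lengths, Socs1 was at 20.2 reads per kilobase per 1000000 reads at week-0 in place of 48.2, and at place 6 in place of 3. These Socs1 values mix unlike gene models and are not a matched level. The length was the same in both libraries, so ratios between them are not affected. Pim1 was first with every one of the 3 lengths in both libraries, and Jak2, Cish and Socs2 were the 3 lowest.

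**Figure D3:**
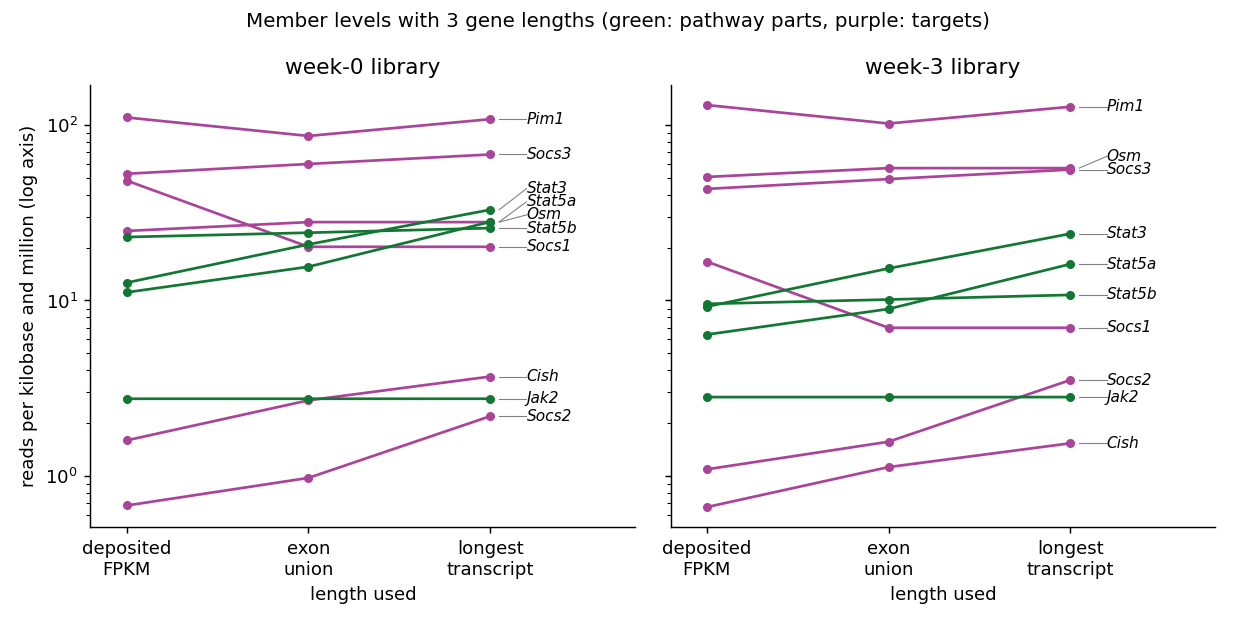
Level of each member in reads per kilobase per 1000000 reads, on a log axis, with the length behind the deposited FPKM, the exon union or the longest transcript of GENCODE M21, in green for pathway parts and purple for targets. The line of Socs1 runs from 48.2 to 20.2 at week-0, with a GENCODE M21 model longer than its deposited locus, while Pim1 stays on top in both libraries.

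The other genes of the pathway were counted from 8 lists by role, with 57 genes in all, of which 48 had at least 20 reads. By the same limit 4 of the 48 were higher (8.33%) and 14 were lower (29.2%), beside 10.6% and 15.6% of all genes tested, and their median log2 ratio was -0.27. Among 9 cytokine ligands, only Lif and Il6 had 20 reads. Lif, leukemia inhibitory factor, had 73 reads and then 8, or 2.59 and 0.463 FPKM. Il3, Csf2, Thpo and Epo, encoding the classic cytokines upstream of JAK2, were at 0 reads in both libraries, which allows up to 0.472 reads per 1000000 in the former and 0.772 in the latter.

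Cytokine receptors moved both ways, with 2 higher and 4 lower of 12 with enough reads. Csf2rb, the beta chain shared by the receptors for interleukin-3, interleukin-5 and GM-CSF, had 298 reads at week-0 against 665 at week-3, or 9.84 and 35.9 FPKM, a log2 ratio of 1.87 (1.67 to 2.07). Csf2rb2, its neighbour in sequence that serves interleukin-3 alone, had 87 and 121 reads and 2.97 and 6.75 FPKM. These genes share 334 of 4801 windows of 100 bases (6.96% of Csf2rb), so a part of their reads is uncertain. The alpha chain Il3ra was at 20.5 and 36.5 FPKM and Csf2ra at 57.3 and 76.0 FPKM, both within the limit. In the other direction, Il2rg, the common gamma chain, was at 35.7 and 16.1 FPKM, and Il7r, the interleukin-7 receptor of lymphoid progenitors, had 42 and 7 reads. Epor, the erythropoietin receptor, had 46 and 14 reads and a log2 ratio of -1.01, with an interval of -1.98 to -0.12 that crosses the limit.

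Other signalling proteins were mostly within the limit. None of the 3 other JAK kinases passed it, and Jak3, with the most reads of them, was at 26.6 and 15.2 FPKM. Of the other STAT factors, Stat2 (132 and 35 reads) and Stat4 (87 and 21 reads) were lower, and Stat6, with the most reads, was at 13.2 and 9.13 FPKM. The other SOCS genes, Socs4 to Socs7, had log2 ratios from -0.70 to 0.20, and none passed. Pim2 had a log2 ratio of -0.01 and Pim3 one of -0.61, at 94.4 and 61.9 FPKM, so neither passed. Among 11 phosphatases, adaptors and PIAS inhibitors, Pias4 was higher at 2.69 and 6.99 FPKM, Pias2 was lower at 5.50 and 2.04 FPKM, and Sh2b3 was lower at 12.7 and 2.37 FPKM. SH2B3, also called LNK, restrains JAK2 signalling. Sh2b3 had a log2 ratio of -2.42 (-2.71 to -2.14), against 0.03 for Jak2 itself. Ptpn6, the phosphatase SHP-1 and the gene of that list with the most reads, was at 32.5 and 40.3 FPKM.

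A second set of STAT5 targets, of 10 genes outside the members, counted 1 higher and 5 lower, where 10.6% and 15.6% of all genes tested were. The 12 of 14 immediate-early genes that were lower, with 4.04% and 1.20% of reads, moved in the same libraries, and their part in these values was not tested. The higher one, Il2ra, the alpha chain of the interleukin-2 receptor, rests on 6 and 18 reads. Lower genes were Bcl6, a repressor (172 and 13 reads), Id1, an inhibitor of differentiation factors (1880 and 281 reads), and Mcl1, which protects cells from apoptosis (2448 and 640 reads). Cdkn1a, the cell cycle inhibitor p21, was at 729 and 120 FPKM, and the cyclin gene Ccnd3 at 23.9 and 11.02 FPKM. Myc, Bcl2l1, Ccnd1 and Ccnd2 had log2 ratios of 0.56, 0.54, 0.41 and -0.16 and did not pass. The median of these 10 was -0.64, beside -0.03 for the 6 targets among the members. These 10 were listed without a direction, so genes that STAT5 represses are not set apart from those it switches on.

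**Figure D4:**
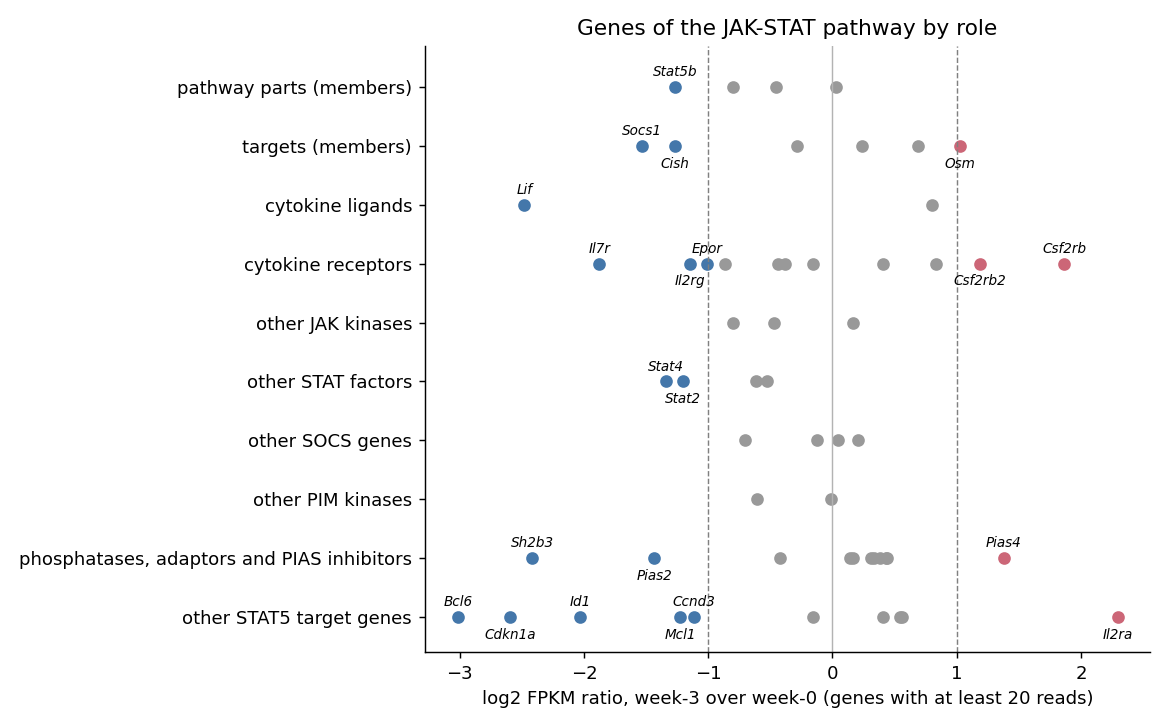
The log2 FPKM ratio of week-3 over week-0 for members and for the other pathway genes with at least 20 reads, 1 point a gene, by role. Points past the dashed limits are named, in blue where lower and in red where higher, genes not reported here are left out, with Bcl6 and Cdkn1a farthest to the left and Il2ra and Csf2rb farthest to the right.

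Other groups of genes differed between the same libraries. The week-0 library held 6356164 reads and the week-3 library 3886695. All 6 erythroid markers, among them Epor, were lower (0.0909% and 0.00697%, none at 0), and 3 of 4 plasma cell and B cell markers with enough reads were lower (0.0911% and 0.00821%). Of 10 stem and progenitor markers 1 was higher and 2 were lower (0.255% and 0.127%, none at 0). Flt3 held the most of these reads at week-0 (6177, then 934), and the higher one, Slamf1, had 10 and 15 reads. Of the 10, FPKM at week-3 was lower for 8 and higher for 2. Of 7 markers of monocytes, macrophages and dendritic cells 3 were lower (0.0757% and 0.0383%, none at 0), namely Cd74, H2-Aa and Siglech. Cd74 held the most of these reads at week-0 (2505, then 47). Csf1r, Cd68 and Lyz2 had higher FPKM at week-3 and Cd14 lower FPKM, all within the limit. Of 5 megakaryocyte markers 1 was lower (0.0133% and 0.0202%, none at 0). The T cell and NK cell markers took 0.0449% and 0.0677%, with Cd3e, Cd8a and Ncr1 at 0 at week-3, and nearly all of these reads were on Nkg7 (2839 and 2627), the 1 with enough reads, which was within the limit. The other 5 had lower FPKM at week-3, each with few reads. The receptor genes Csf2rb and Epor were measured in these same mixtures, and the part of the cell types in their ratios was not tested. Fewer cells of a type and less RNA per cell cannot be told apart in these libraries. The sorting markers were present, Kit with 1391 and 580 reads and Ly6a, which encodes Sca1, with 434 and 199. Of the lineage genes, Cd3e (5 and 0 reads), Ly6g (5 and 5) and Itgam (30 and 30) had few reads. The other gene of that list, Ptprc, which is also in the list of phosphatases, had 707 and 478 reads, or 4.13 and 4.56 FPKM. Counts per gene do not separate its isoforms, so this value does not show lineage-positive cells. The mouse genes Bcr, with 371 and 108 reads (8.93 and 4.25 FPKM), and Abl1, with 395 and 144 reads (3.00 and 1.79 FPKM), had lower FPKM in the week-3 library, so induction of BCR/ABL is not visible in these values. Whether reads of the transgene were counted on these genes was not tested. The paper measured BA itself by qRT-PCR in LSKs and reported a significant increase at week-3.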

How the data were processed

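The samples were BM LSKs of Scl/tTA-BA mice, as 1 RNA-seq library at week-0 against 1 at week-3, each of 3 mice mixed. The authors used the SMARTer Ultra Low Input kit, paired-end sequencing and TopHat 2.0.9 on GRCm38 (mm10, per the labels). They deposited counts, as whole reads per gene, and FPKM, scaled by a gene length and by the reads on genes. The counting tool and annotation release are not given in the sources used here.

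Both values were read for 34745 genes. A gene was called where its FPKM ratio (week-3 over week-0) was 2 or more, or 0.5 or less, with at least 20 reads over both libraries, and with no p-value. Ratio intervals are Clopper-Pearson intervals of the week-3 share of reads, level intervals are exact Poisson intervals, and cross ratios have exact conditional intervals, all at 95% and covering counting error only. The limit that 0 reads allows is 3 reads. Gene lengths, transcripts and strands came from GENCODE M21, where 8 of 10 members had identical coordinates, and promoters from RefSeq. The calls and ratio intervals were tested on simulated data with counting error alone, which cannot show how they hold under a spread between mice. Intervals used scipy 1.17.1 and numpy 2.4.6, tables pandas 2.3.3 and plots matplotlib 3.10.9, under Python 3.11.15. TMM factors came from edgeR 4.0.16 under R 4.3.3, which was used for nothing else.

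The members and lists were chosen with earlier results of these data known. All members are named, as are pathway genes past the limit and the gene of each list with the most reads. Genes named beyond these were chosen after their values were seen. Genes that fall under the rule but are not named are not reported here, though the counts include them. Alternatives were TMM and median-of-ratios scaling, a pseudocount of 1 FPKM, no minimum or 100 reads, a fold limit of 1.5, the whole interval beyond the limit, and other choices of parts and targets.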

Additional observations from a re-analysis of the deposited data

How the results depend on the processing

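No member was higher by at least 2 with TMM scaling, median-of-ratios scaling, a pseudocount of 1 FPKM or a whole interval beyond the limit (0 in each, against 1), and 2 were at a fold limit of 1.5. The shares of all genes tested were 8.51%, 8.83%, 5.02%, 3.69% and 23.7% in that order, against 10.6%. The count of lower members was 3 with both scalings and with either minimum of reads, 2 (without Cish) with the pseudocount or the whole interval, and 4 (with Stat5a) at a fold limit of 1.5. Of all genes tested, 17.5% and 17.2% were lower with TMM and median-of-ratios, 25.9% and 11.4% with no minimum and with 100 reads, 8.11% with the pseudocount, 7.60% with the whole interval and 24.6% at 1.5, against 15.6%. TMM shifted all log2 ratios by -0.11 and median-of-ratios by -0.09. Of 30 log2 values of members under the scalings and the pseudocount, 28 moved by less than their counting error. The exceptions were Cish at -0.64 with the pseudocount and Pim1 at 0.12 with TMM. Jak2, not called, turned sign to -0.08 with TMM and -0.06 with median-of-ratios. The cross ratio of targets to parts was 2.07 without Stat3 and 1.17 with feedback inhibitors as the only targets. It was 1.60 without Pim1, 1.58 without Osm and 1.46 for feedback inhibitors over Stat5a and Stat5b, 3 settings chosen after seeing the data, as were the lengths other than the deposited one. Without Jak2, without Socs2 or in FPKM it was 1.80, 1.74 and 1.80. In reads, Stat5a made up 45.2% of the STAT5 pair at week-0 and 53.2% at week-3. The cause of these movements was not tested. No paired analysis was possible because each time point has 1 library, and for the same reason no replicate could be left out. Depth limits Cish, Socs2 and Jak2 most, the members with the fewest reads.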

Other observations

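The lengths behind the deposited FPKM were recovered from reads, FPKM and library totals for 17919 genes. In 74.2% of them the length equalled, within 2%, the sum of all distinct exons of the gene, so that bases in overlapping exons of several transcripts counted more than once, and 23.4% equalled the exon union. The median length was 1.15 times the exon union. Ratios between libraries are not affected, since lengths differed by at most 0.0365% between them, but levels of genes with many annotated exon variants, such as Stat3, Stat5a, Cish and Socs2, are understated against genes with few, such as Jak2 and Osm.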
